A study of Mus musculus with 18 samples.

Results

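MicroRNAs (miRNAs) that are made mainly by blood and immune cells were followed in livers of male Muta™Mouse, a mouse of transgenic strain 40.6 that carries a bacterial lacZ transgene in all groups. The 8 members were chosen by name: mmu-miR-451 and mmu-miR-144 (erythroid), mmu-miR-223 (myeloid), mmu-miR-142-3p and mmu-miR-142-5p (all leukocytes), and mmu-miR-150, mmu-miR-155 and mmu-miR-146a (lymphocytes or inflammation), written below without the species prefix mmu. They are 8 of the 576 non-control names on the array, and each is read by 2 probes with 10 spots a probe. The mice were 25 weeks old and received BaP (benzo(a)pyrene, a combustion product that the liver turns into DNA-binding metabolites) in olive oil by gavage every day for 28 days. The doses were 25, 50 or 75 mg/kg/day (5 arrays each), the control group received olive oil alone (3 arrays), and a piece of liver was frozen 3 days after the last dose. Each array is 1 animal.

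A miRNA is cut from an RNA hairpin and guides the Argonaute protein to mRNAs that pair with its seed, the bases near its 5′ end. Liver tissue is mostly hepatocytes, but it also holds red blood cells, Kupffer cells, neutrophils and lymphocytes, so miRNAs that hepatocytes barely make can serve as a readout of blood and of immune cells in the piece of tissue that was frozen. MiR-451 and miR-144 come from one transcript switched on by GATA1 during red cell maturation and stay in the red cell, miR-223 is abundant in granulocytes and monocytes, miR-142 is made by most blood lineages, miR-150 belongs to mature lymphocytes, and miR-155 and miR-146a are induced by inflammatory signals. In whole tissue, fewer cells of a type and less of the miRNA per cell cannot be told apart. Whether the livers were perfused is not given in the sources used here. The labels name cervical dislocation after isoflurane as the way the mice were killed, the study's methods name cardiac puncture under isoflurane, and the part of blood left in the tissue was not tested.

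RefSeq (build GRCm38.p6) holds the mature arm of 7 of the 8 members. They are printed here to show what the probes were made to read and that the members belong to different seed families. Each is written 5′ to 3′ with its seed, bases 2 to 8, in capitals.
miR-451: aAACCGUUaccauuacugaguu
miR-144: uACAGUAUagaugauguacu
miR-223: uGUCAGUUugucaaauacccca
miR-142-3p: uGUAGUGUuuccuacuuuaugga
miR-142-5p: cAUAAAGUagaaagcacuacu
miR-155: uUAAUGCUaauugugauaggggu
miR-146a: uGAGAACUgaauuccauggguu
The 7 sequences carry 7 distinct seeds. Among the other mature miRNAs of the table, the seed of miR-146a is shared with 1, miR-146b-5p, and the other 6 seeds with 0.

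The members of the erythroid pair are neighbours in the genome. Mir144 lies at chr11:78073005-78073070 and Mir451a at chr11:78073170-78073241, both on the plus strand, with 99 bases between the hairpins. They are printed because the pair is read together below; the mature miRNA is in capitals.
Mir144: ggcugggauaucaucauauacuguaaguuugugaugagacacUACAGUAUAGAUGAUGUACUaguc
Mir451a: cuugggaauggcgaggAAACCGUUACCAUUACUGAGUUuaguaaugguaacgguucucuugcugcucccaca
In the Mir451a hairpin the mature miRNA occupies bases 17 to 38 of 72 and so runs through the loop, the mark of a miRNA that Argonaute 2 rather than Dicer cuts. In the Mir144 hairpin it occupies bases 43 to 62 of 66, in the 3′ arm. Mir451b overlaps Mir451a in the annotation. Both arms of Mir142 come from chr11:87756864-87756927 on the plus strand, where Mir142b is annotated on the other strand. Mir146, the gene of miR-146a, lies at chr11:43374397-43374461 on the minus strand. Mir223 lies at chrX:96242817-96242926 within the long non-coding RNA F630028O10Rik, and Mir155 at chr16:84714140-84714204 within Mir155hg.

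The arrays came from 3 slides, which differed in background and in the number of names detected. Slide 1 held control replicate 1 and replicates 1 and 2 of each dose, slide 2 held no control but replicates 3 and 4 of the middle and top dose, and slide 3 held the remaining 7 arrays, 2 of them controls. Replicate numbers only name arrays. The median raw signal of non-control spots was 39.5 to 50.5 on slide 1. It was 63 to 69 on slide 2 and 58 to 64 on slide 3. On each array this median lay below that of the negative control spots, so it describes background. Between 57 and 144 names were detected on an array. The median number of names was 107 on slide 1, 92.5 on slide 2 and 92 on slide 3. The fewest, 57 and 70, were on replicates 4 and 5 at 25 mg/kg/day. MiR-122, the defining miRNA of hepatocytes, was present on 18 of 18 arrays (mean normalised log2 signal 13.57). Of the lists for other cell types, miR-126-3p (endothelium) and miR-199a-3p (mesenchymal cells) were also present on all 18. The rest of these lists was hardly seen. MiR-126-5p (endothelium) and miR-214, miR-143 and miR-145 (mesenchymal cells) were present on 0 arrays, and miR-199a-5p and miR-199b* on 1 each.

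Detection split the 8 miRNAs into a tested and an untested set. A probe counted as present on an array where the scanner flagged 0.5 or more of its spots as well above background, and a miRNA was tested where such a probe was found on 0.8 or more of the arrays in any dose group or the controls. By this filter 3 of 8 were tested: miR-451, miR-144 and miR-223. Both probes of miR-451 were present on 18 of 18 arrays. For miR-144 the numbers were 10 and 15 of 18, and for miR-223 they were 3 and 15 of 18, so its value rests on 1 probe. The tested set is one that had to be bright in some group, and it is not all members.

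The remaining 5 miRNAs had no level that could be compared in all groups. MiR-142-3p was present with 1 probe on 7 arrays and with the other on 6, all of them on slide 1. MiR-146a was present with 1 probe on 7 arrays, of which 5 were on slide 1, and with the other on 0. That count depends on the rule: a limit set on the negative control spots made it 10 arrays (6 on slide 1, 1 on slide 2 and 3 on slide 3), and the scanner's own call of a detected miRNA made it 11, including all 3 controls and 5 of 7 arrays on slide 3. No probe of miR-142-5p, miR-150 or miR-155 was present on any of the 18 arrays. Their normalised log2 signals lay between 5.72 and 6.02, between 5.73 and 5.79 and between 5.69 and 5.74. The scanner's call found miR-142-5p on 2 arrays, control replicate 1 and replicate 1 at 25 mg/kg/day, both on slide 1, and found miR-150 and miR-155 on 0.

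**Figure D1:**
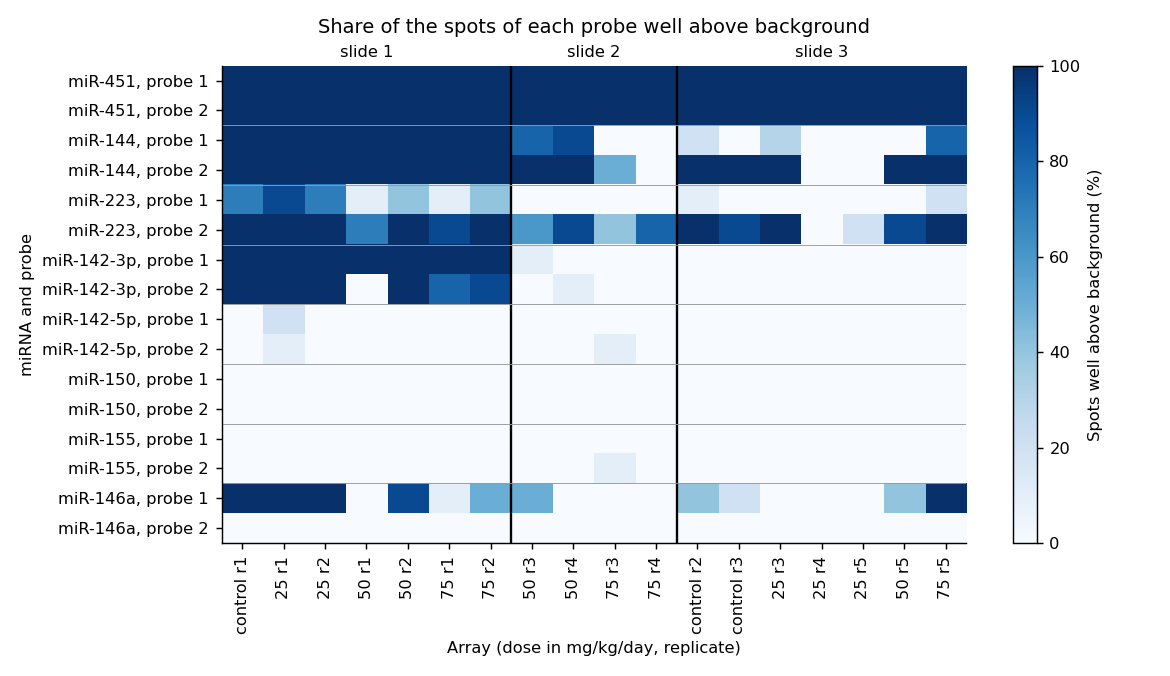
Share of the 10 spots of each probe (rows) that were well above background, in percent, on each of the 18 arrays (columns, ordered by slide, then dose in mg/kg/day, then replicate, r). Black lines divide slides: miR-451 was dark throughout, miR-142-3p was dark on slide 1 alone, and miR-142-5p, miR-150 and miR-155 stayed near white.

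Other markers of blood on the array gave little more. Of the 3 erythroid miRNAs listed, miR-486 was present on 0 arrays. Of the 6 listed for lymphocytes or inflammation, miR-146b and miR-181a were present on 0 arrays and miR-181b on 1, on slide 1.

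The dose comparisons asked whether the blood and immune cell miRNAs of the liver differ under BaP. None of the 3 tested passed the threshold by limma with slide in the fit. At 25 mg/kg/day 0 of 3 passed an adjusted P of 0.05, against 0% of the 69 miRNAs tested (7 of the 69 had an unadjusted P under 0.05). At 50 mg/kg/day 0 of 3 passed against 2.9%, at 75 mg/kg/day 0 of 3 against 5.8%, and for the linear trend over dose 0 of 3 against 10.1%. The number of the 3 with an unadjusted P under 0.05 was 0 in each. Their median log2 changes were -0.08, -0.02 and -0.01 at the successive doses, beside medians of -0.02, -0.02 and -0.03 over all 69. The 3 dose comparisons share the same control arrays.

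MiR-451, which helps red cell precursors to mature, varied more between arrays of a group than between doses. Its normalised log2 signal was 9.40, 8.95 and 8.80 in control replicates 1, 2 and 3. At 25 mg/kg/day it was 9.32, 8.71, 8.96, 8.41 and 8.36 in replicates 1 to 5. At 50 mg/kg/day the 5 values were 9.53, 9.01, 9.14, 9.11 and 8.55. Each dose so far overlapped the controls, although 3 of the 5 arrays at 25 mg/kg/day lay below the lowest control. At 75 mg/kg/day the values were 9.96, 9.35, 8.61, 7.74 and 8.80, which placed both the highest and the lowest array of the series in this one group. The groups overlapped.

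Controls averaged 9.05 ± 0.31 for miR-451 (SD, n = 3), beside 8.75 ± 0.40 for the low dose (SD, n = 5), 9.07 ± 0.35 for the middle dose (SD, n = 5) and 8.89 ± 0.83 for the high dose (SD, n = 5). The fitted log2 difference between 25 mg/kg/day and control, with slide in the model, was -0.34 ± 0.28 (SE; limma adjusted P = 0.606), with a 95% interval of -0.93 to 0.26, or 0.524-fold to 1.20-fold. At 50 mg/kg/day it was 0.04 ± 0.30 (SE; adjusted P = 0.939; interval -0.61 to 0.69). At 75 mg/kg/day it was -0.14 ± 0.30 (SE; adjusted P = 0.895; interval -0.79 to 0.51). Without replicate 1 at 75 mg/kg/day that difference was -0.35, and without replicate 4 it was -0.0092. The differences at 50 and 75 mg/kg/day were smaller than the SD of any group. At 25 mg/kg/day the difference exceeded the control SD of 0.31 and was smaller than the SD at each dose. These SDs include slide, which the fit removes. The intervals are wide enough to hold a 1.5-fold change in at least 1 direction at each dose.

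Within slides the pattern for miR-451 was mixed. At 25 mg/kg/day the difference from the controls of the same slide was -0.38 on slide 1 and -0.30 on slide 3, and 4 of 5 arrays lay below every control of their slide. At 50 mg/kg/day the differences were -0.13 and -0.32, against a fitted change near 0. At 75 mg/kg/day they were 0.26 and -0.07, of opposite sign. The 2 arrays at 50 and the 2 at 75 mg/kg/day on slide 2 had no control beside them. The 4 arrays of slide 2 alone spanned 7.74 to 9.14, a 2.65-fold range.

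The scanner's background-subtracted total signal for miR-451, which is not normalised between arrays, ran from 134 in replicate 4 to 1314 in replicate 1, both at 25 mg/kg/day. The lowest array on that scale was also the one with the fewest names detected, and it was not the lowest after normalisation.

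MiR-144, the partner of miR-451 on one transcript, was dimmer. Its normalised log2 signal was 6.77, 6.20 and 6.26 in control replicates 1 to 3. At 25 mg/kg/day it was 6.65, 6.33, 6.32, 6.26 and 6.21 in replicates 1 to 5. Replicate 1 stood apart there, and it came from slide 1. The values were 6.60, 6.52, 6.34, 6.46 and 6.15 at 50 mg/kg/day. They were 6.98, 6.55, 6.24, 6.06 and 6.30 at 75 mg/kg/day. The groups overlapped, and as for miR-451 the highest and lowest arrays were replicates 1 and 4 at 75 mg/kg/day.

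For miR-144 the fitted log2 difference from control was -0.08 ± 0.11 (SE; limma adjusted P = 0.763; 95% interval -0.32 to 0.16) under the low dose. Under the middle dose it was -0.03 ± 0.12 (SE; adjusted P = 0.920; interval -0.29 to 0.23), and under the high dose -0.01 ± 0.12 (SE; adjusted P = 0.976; interval -0.27 to 0.25). Within slides 1 and 3 the differences were -0.28 and 0.03 at 25, -0.21 and -0.08 at 50 and -0.01 and 0.07 at 75 mg/kg/day. No probe of miR-144 was present on 3 arrays, replicates 4 and 5 at 25 and replicate 4 at 75 mg/kg/day, so their values are near background and only bound its level. The dimmer of the 2 probes averaged was present on 1 of 3 controls and on 2, 4 and 3 of 5 arrays at the rising doses. It passed the filter through the middle dose alone, so background enters the value on further arrays. Because background was not subtracted, changes of so dim a signal understate those of the RNA. At the low dose the difference was -0.48 ± 0.42 in the processed signal (SE; limma adjusted P = 0.684) and -1.55 ± 1.10 in the total signal (SE; adjusted P = 0.603), both outside the interval above, and it was -0.0109 in the main signal without control replicate 1. In the total signal, replicates 4 and 5 at 25 mg/kg/day hold a fixed 0.1, given where a miRNA was not detected. Replicates 1 to 3 were at 74.7, 38.0 and 22.7. The size of -1.55 thus depends on that fixed value and is not a measured change.

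MiR-223, which restrains the production and activity of granulocytes, had the narrowest range of the 3 in the signal with its background. Its normalised log2 signal was 6.32, 6.24 and 6.29 in controls. It was 6.30, 6.35, 6.29, 6.32 and 6.34 at 25 mg/kg/day, and 6.36, 6.27, 6.20, 6.23 and 6.22 at 50 mg/kg/day. At 75 mg/kg/day it was 6.29, 6.31, 6.22, 6.29 and 6.26. The groups overlapped and all 18 arrays lay between 6.20 and 6.36.

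The log2 change of miR-223 was 0.04 ± 0.03 at 25 mg/kg/day (SE; limma adjusted P = 0.635; 95% interval -0.04 to 0.11), -0.02 ± 0.04 at the middle dose (SE; adjusted P = 0.910; interval -0.10 to 0.06) and -0.004 ± 0.04 at the top dose (SE; adjusted P = 0.976; interval -0.08 to 0.07). In the processed signal the differences were 0.42 ± 0.17, 0.34 ± 0.18 and 0.37 ± 0.18 at the rising doses (SE; limma adjusted P = 0.367, 0.494 and 0.283), outside those intervals. In the total signal they were -0.36 ± 0.60, 0.35 ± 0.66 and 0.59 ± 0.66 (SE; adjusted P = 0.743, 0.763 and 0.593), with replicate 4 at 25 mg/kg/day, where miR-223 was not detected, at a fixed 0.1. The tight intervals thus describe the probe signal with its background, not the RNA: on replicates 4 and 5 at 25 and on replicate 3 at 75 mg/kg/day the probe was not present, yet its normalised value lay within the range of the others.

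**Figure D2:**
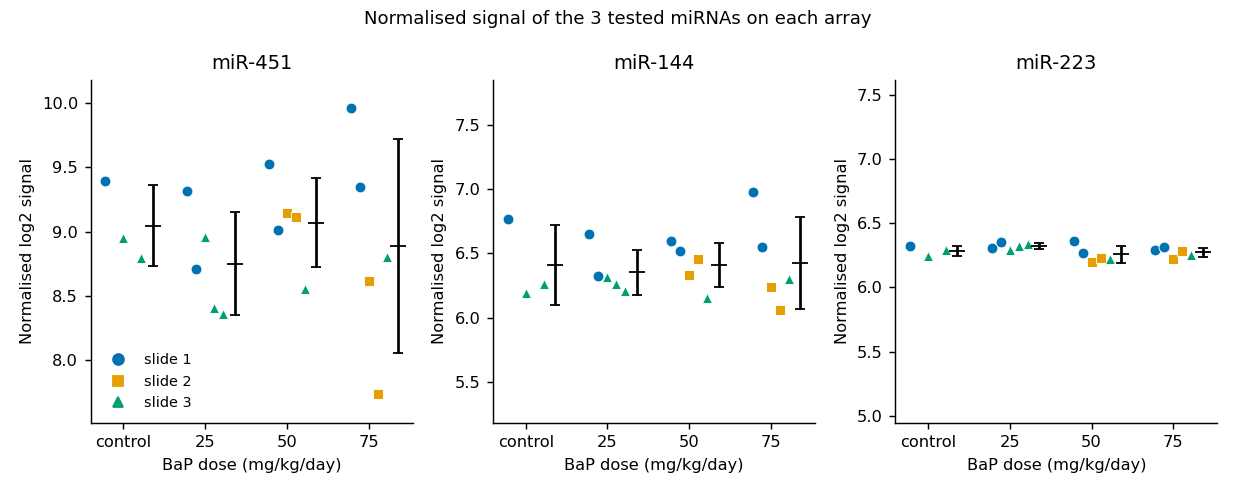
Normalised log2 signal (vertical axis, with the same span in each panel) of miR-451, miR-144 and miR-223 on each array against BaP dose in mg/kg/day. Points are single animals, coloured and shaped by slide; the bar beside each group is the mean ± SD (n = 3 controls, 5 at each dose). The arrays at 75 mg/kg/day span 7.74 to 9.96 for miR-451, and those for miR-223 lie in a narrow band in all groups.

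Linear trends over dose were close to 0 for each of the 3. The slope per 25 mg/kg/day was -0.006 ± 0.10 for miR-451 (SE; limma adjusted P = 0.993), 0.004 ± 0.04 for miR-144 (SE; adjusted P = 0.981) and -0.006 ± 0.01 for miR-223 (SE; adjusted P = 0.813).

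In the normalised signal with its background, the spread between arrays was among the largest of the tested miRNAs for miR-451 and the smallest for miR-223. Each animal had 1 array, so differences between animals and between arrays cannot be told apart. After slide and dose were fitted, the residual SD of miR-451 was 0.43 log2 units, or 1.35-fold, rank 2 of 69 with the largest first. MiR-1224, rank 1, is named because it alone exceeded miR-451. For miR-144 the residual SD was 0.17 (rank 7), for miR-223 it was 0.03 (rank 69), and the median over all 69 was 0.08. Slide accounted for 41.1% of the variance of miR-451, 62.7% of that of miR-144 and 44.8% of that of miR-223, beside a median of 54.9%. Dose, after slide, accounted for 8.67%, 1.70% and 18.0%, beside a median of 7.69%. Without replicate 4 at 75 mg/kg/day the residual SD of miR-451 was 0.32. In the background-subtracted processed signal the residual SD was 0.50 for miR-451, 0.63 for miR-144 and 0.24 for miR-223, and in the scanner's total signal, also background-subtracted, it was 0.53, 1.57 and 0.86. On both scales miR-144 exceeded miR-451, and in the total signal miR-223 did so too. The total signal holds a fixed 0.1 where the scanner did not detect a miRNA, and these values enter its residual SD. For miR-144 this was so on replicates 4 and 5 at 25 and replicate 4 at 75 mg/kg/day. For miR-223 it was so on replicate 4 at 25 mg/kg/day. The total-signal SDs of these 2 miRNAs are therefore not measured spreads alone.

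**Figure D3:**
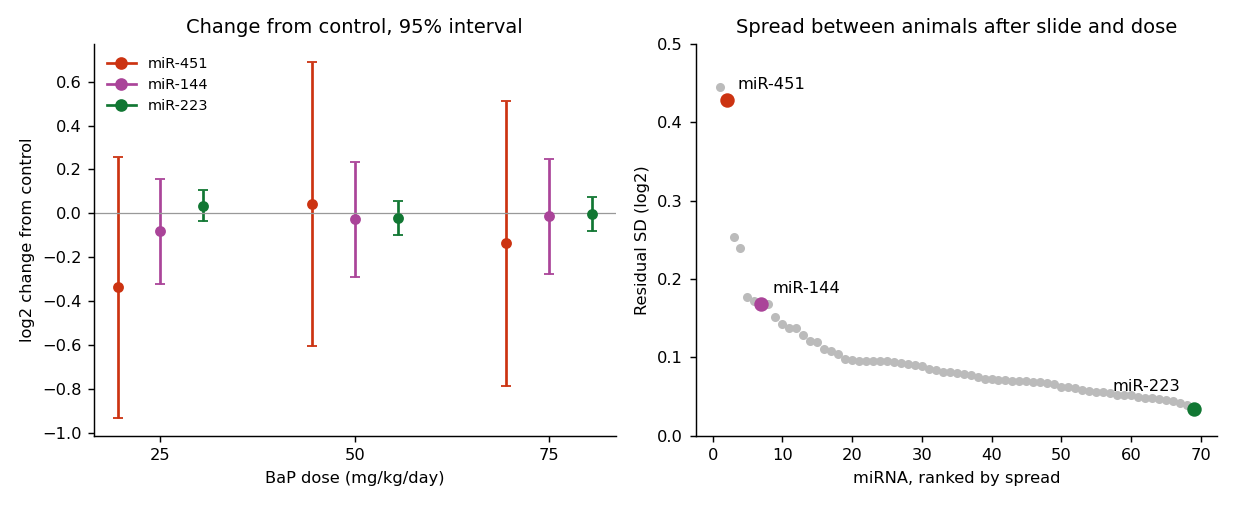
Left, log2 change from control at each BaP dose (mg/kg/day) for miR-451, miR-144 and miR-223, with slide in the fit; bars are 95% intervals, and each spans 0. Right, residual SD (log2 units) of the 69 tested miRNAs after slide and dose, ranked from largest to smallest in the signal with its background, with the 3 in colour: miR-451 is at rank 2, miR-144 at rank 7 and miR-223 at rank 69.

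The erythroid pair varied together. With slide means removed, miR-451 and miR-144 correlated over the 18 arrays with Pearson's r = 0.82 (two-sided permutation P = 3e-04, 100000 shuffles within slides; adjusted P = 9e-04 over the 3 pairs) and Spearman's rho = 0.78 (P = 0.00096; adjusted P = 0.00288). Without the 2 arrays farthest from the median of miR-451, replicate 4 at 75 and replicate 2 at 25 mg/kg/day, r was 0.72. Within slide 1 (7 arrays) r was 0.92 (exact permutation P = 0.00933), and within slide 3 (7 arrays) it was 0.39 (exact permutation P = 0.373), so the relation was not detected within slide 3, where neither probe of miR-144 was present on 2 of 7 arrays. The dimmer probe of miR-144 was present on only 1 of those 7. No correlation is read from slide 2, which had 4 arrays.

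**Figure D4:**
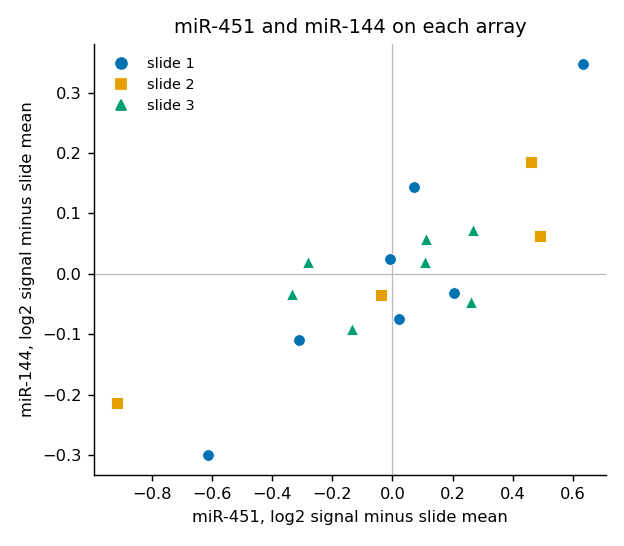
Normalised log2 signal of miR-144 (vertical) against miR-451 (horizontal) on the 18 arrays, each minus the mean of its slide; points are single animals, coloured and shaped by slide. Arrays high in miR-451 were also high in miR-144 (r = 0.82), and the arrays of slide 3 lie in a flatter cloud (r = 0.39).

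The signal of miR-223 was not shown to move with that of miR-451 or miR-144. It includes background, and its probe was not present on replicates 4 and 5 at 25 and replicate 3 at 75 mg/kg/day. These correlations therefore cannot decide whether myeloid and erythroid cell content varied together. Between miR-451 and miR-223 r was -0.47 (permutation P = 0.0531; adjusted P = 0.0796) and rho was -0.33 (P = 0.198; adjusted P = 0.297), with r = -0.23 without the 2 farthest arrays, -0.16 within slide 1 (exact permutation P = 0.747) and -0.51 within slide 3 (exact permutation P = 0.241). Between miR-144 and miR-223 r was -0.26 (permutation P = 0.282; adjusted P = 0.282) and rho was -0.05 (P = 0.850; adjusted P = 0.850). Without the 2 arrays farthest from the median of miR-144, replicate 1 at 75 and replicate 2 at 25 mg/kg/day, r was -0.08. For this pair r was -0.37 within slide 1 (exact permutation P = 0.422) and 0.37 within slide 3 (exact permutation P = 0.405).

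Of all other tested miRNAs, the one most like miR-451 by slide-centred Pearson's r over the 18 arrays was miR-144, followed by miR-28 (0.54) and miR-106b (0.46). For miR-144 these were miR-451, miR-28 (0.39) and miR-140 (0.36). For miR-223 they were miR-23b (0.80), miR-193 (0.65) and miR-365 (0.62). These correlations describe arrays that share normalisation and slides, and no test is given for them.

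The probes of each miRNA were compared because a miRNA's value is the mean of its present probes. The slide-centred signals of the probe pair correlated over the 18 arrays with r = 0.96 for miR-451 and 0.94 for miR-144, and with 0.70 for miR-223, whose dimmer probe was left out. The gap between the probes of miR-451 was 0.46 ± 0.05 log2 units on slide 1 (SD, n = 7), 0.82 ± 0.23 on slide 2 (SD, n = 4) and 0.85 ± 0.18 on slide 3 (SD, n = 7), so the probes responded unequally on different slides. For miR-150 and miR-155, present on no array, the pair correlated at -0.27 and -0.15.

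MiR-142-3p, a miRNA of nearly all leukocytes, was measurable on slide 1 only. On that slide the normalised log2 signal of its brighter probe was 7.15 in the control, 7.05 and 6.88 at 25, 6.70 and 6.80 at 50 and 6.88 and 6.88 at 75 mg/kg/day. The control was the highest of the 7. On slides 2 and 3 the same probe lay between 5.92 and 6.26 and did not clear background on any of those 11 arrays. The signal on slide 1 was at least 1.73-fold that on slide 2 and at least 1.65-fold that on slide 3, where the bound sets the mean of slide 1 against the dimmest signal well above background on each array or the probe's own, whichever was higher. This split followed slide and scan date, not dose: each of the 4 groups had arrays of slide 1, and they were the present ones.

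MiR-146a, which dampens Toll-like receptor signalling, was near the limit of detection. On slide 1 its brighter probe was at 6.39 in the control, 6.38 and 6.35 at 25, 6.11 and 6.17 at 50 and 6.06 and 6.11 at 75 mg/kg/day, and it was not present on the first array at 50 nor the first at 75. On slide 3 it was at 6.16 and 6.11 in the controls, 6.10, 6.10 and 6.12 at 25 and 6.13 at 50 mg/kg/day, none of them present, and at 6.32, present, in the array at 75 mg/kg/day. On slide 2 it was at 6.11 and 6.04 at 50 and 6.03 and 5.96 at 75 mg/kg/day, present on the first alone. On slide 1 the arrays at 50 and 75 mg/kg/day were thus below the single control, and on slide 3 the array at 75 mg/kg/day was above both controls.

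**Figure D5:**
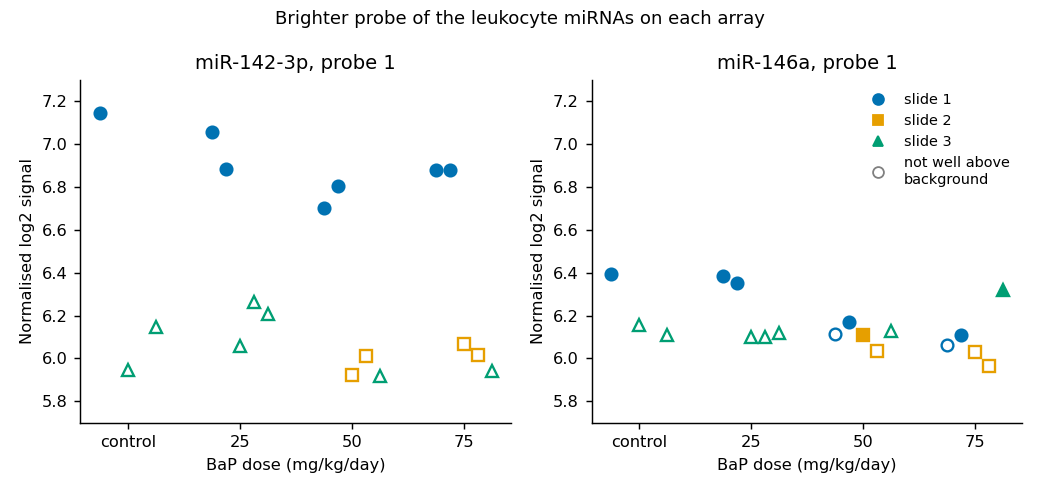
Normalised log2 signal of the brighter probe of miR-142-3p (left) and of miR-146a (right) on each array against BaP dose in mg/kg/day; points are single animals, coloured and shaped by slide, and open symbols mark arrays where the probe was not well above background. For miR-142-3p the 7 arrays of slide 1 lie between 6.70 and 7.15 and the other 11 between 5.92 and 6.26.

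Fitted without the filter, with all 576 names tested and slide in the model, 0 of 8 members passed at any dose or in the trend (limma). Over all names the calls numbered 0, 1 and 9 at the rising doses and 8 for the slope. In this fit the log2 change of miR-142-3p was -0.01 ± 0.06 under the low dose (SE; adjusted P = 0.950), -0.19 ± 0.06 under the middle one (SE; adjusted P = 0.268; unadjusted P = 0.00653) and -0.14 ± 0.06 under the high one (SE; adjusted P = 0.324; unadjusted P = 0.0390). It averages arrays on which the probes were present with arrays on which they were not. Within slide 1 the arrays at 50 and 75 mg/kg/day were below the control by 0.36 and 0.26 in the mean of both probes, but that slide had 1 control. Within slide 3, where the probes were not present, the differences were -0.08 and -0.08. For miR-142-5p, miR-150, miR-155 and miR-146a the adjusted P in this fit lay between 0.368 and 0.994 over the 3 doses and the trend.

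By cell type list, no listed miRNA of blood, endothelium or hepatocytes passed in any dose comparison or in the trend: 0 of 2 erythroid, 0 of 1 myeloid, 0 of 1 endothelial and 0 of 4 hepatocyte miRNAs tested. The 2 leukocyte and 6 lymphocyte or inflammation miRNAs listed had 0 tested. The 1 listed miRNA that passed was miR-199a-3p, the only 1 tested of the 6 listed for mesenchymal cells. It fell by 0.22 ± 0.05 on the log2 scale at 75 mg/kg/day (SE; limma adjusted P = 0.00931) and by 0.07 ± 0.01 per 25 mg/kg/day in the trend (SE; adjusted P = 0.00384). Of the hepatocyte list, miR-148a also fell by 0.22 ± 0.07 at 75 mg/kg/day (SE; adjusted P = 0.0669), without passing. There miR-192 changed by 0.007 and miR-194 by 0.02. The fitted log2 differences of miR-122 were 0.15 ± 0.09, -0.02 ± 0.10 and 0.11 ± 0.10 at the 3 doses (SE; adjusted P = 0.524, 0.920 and 0.4998).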

How the data were processed

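Total RNA with its small fraction, from 1 liver an array, was labelled and hybridised by the authors to 1-colour Agilent mouse miRNA arrays and read with Agilent Feature Extraction 10.7.3.1, per the submitters' processing notes. As deposited, the scanner files hold linear spot intensities with no normalisation across arrays. A second deposited table, summarised by the authors to log2 values per miRNA without background subtraction (as read from its match to the scanner values over 574 names, r 0.990 to 1.00), had column medians of 5.74 to 5.76. Its centring is unknown, and it served as an alternative.

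After the study's methods, median signal was used without background subtraction, log2 values were normalised by cyclic loess over non-control spots, replicate spots were summarised by their median and slide was a block. Spots marked as outliers were removed after normalisation (1.91% to 3.84% of an array), no spot was saturated, and the mean over present probes was taken. This kept 112 probes of 69 names. The study's MAANOVA with residual shuffling was replaced by limma 3.58.1 in R 4.3.3 (lmFit and eBayes, all 18 arrays, two-sided, Benjamini-Hochberg over the 69). The trend was a slope per 25 mg/kg/day. The fit was tested on simulated data. Of 12493 spots on an array, 11540 were not controls. Slide 1 files name 40 spots, none of a member, differently; the other slides' names were used. The 18 arrays limit the precision.

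Members and marker lists were chosen with earlier results of these data known. The rule for names took the 8 members, listed miRNAs past the threshold, the 3 tested miRNAs most like each tested member and miR-122; miR-1224, the other listed markers and the array facts were added as context. Sequences were matched by arm to current RefSeq names (miR-451a, miR-144-3p, miR-223-3p, miR-142a-3p, miR-142a-5p, miR-155-5p, miR-146a-5p). Labels state 5 vehicle animals, but the samples at hand hold 3 control arrays, and all 3 were used. The paper states that its quality check removed arrays from the miRNA data, and it does not name their group. The control group is the only one with fewer arrays than the 5 animals a group that the paper describes. Whether the absent control arrays are the removed ones is not stated. Animals are separate, so replicates are biological.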

Additional observations from a re-analysis of the deposited data

Results flagged for a closer look

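Among the arrays at 25 mg/kg/day, replicate 1 gave a miR-144 signal of 6.65 (log2) that lay well above the other 4. The next array was at 6.33 and the lowest at 6.21, so the distance to the next array was 0.734 of the whole range, past the limit of 0.71 that applies to 5 values. Chance gives such an array in about 1 in 20 groups, and 1 of the 9 groups of 5 arrays checked had one. Replicates 1 and 2, the 2 highest, were on slide 1 and the other 3 on slide 3. The part of slide in the distance was not tested.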

How the results depend on the processing

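Over the 3 tested members, the 3 doses and the trend, 412 alternative estimates, those that left out 1 array included, called no member (0). They are not independent. They come from at most 35 alternatives for each member and comparison, all drawn from the same 18 arrays. No paired analysis was possible because replicate numbers here are names given in listing order. The fits on slide 1 or slide 3 alone were chosen after seeing the data. The filter kept 3 members, against 8 without a filter and 1 with probes present on all 18 arrays. Changes of members, none of them called, took the opposite sign to that in the report as follows, and the cause was not tested. With quantile normalisation miR-144 was at 0.0400 at 50 mg/kg/day, miR-223 at 0.0142 at 75, and the slopes of miR-451 and miR-223 were 0.0221 and 0.00263. With array medians centred only, miR-223 was at -0.0412 at 25 and miR-451 at -0.39 at 50, the slope of miR-144 was -0.0239, and the residual SD was 0.77 for miR-451 and 0.12 for miR-223. In the processed signal miR-144 was at 0.41 at 50 and 0.0277 at 75, miR-223 at 0.34 and 0.37, the slopes of miR-451 and miR-223 were 0.0252 and 0.0890, and the residual SD was 0.63 for miR-144 and 0.24 for miR-223. In Agilent's total gene signal miR-223 was at -0.36, 0.35 and 0.59 at the successive doses, miR-144 at 0.66 at 50 and miR-451 at 0.0691 at 75. There the slopes of miR-451 and miR-223 were 0.0706 and 0.26, with a residual SD of 1.57 for miR-144 and 0.86 for miR-223. That signal holds a fixed 0.1 on arrays where the scanner did not detect the miRNA. In the table the authors deposited, miR-223 was at 0.00236 at 50 and 0.00816 at 75, and the slopes of miR-451, miR-144 and miR-223 were 1.62e-05, -0.0140 and 0.00262. With normexp, miR-223 was at 0.0112 at 75 and the slopes of miR-144 and miR-223 were -0.00641 and 0.000418. Without a filter, where its value is the mean of both probes, miR-223 was at 0.0288 at 75, with a slope of 0.00530. With the brightest present probe miR-144 was at 0.000467 at 75. With slide not in the fit miR-144 was at 0.00135 at 50 and 0.0149 at 75. Without slide 2, miR-451 was at -0.22 at 50 and 0.12 at 75 with a slope of 0.0601, and miR-144 at 0.0736 at 75. On slide 1 alone miR-451 was at -0.13 at 50 and 0.26 at 75 with a slope of 0.15, and miR-223 at -0.00352, 0.0170 and 0.00748 with a slope of 0.00457. On slide 3 alone miR-451 was at -0.32 at 50, miR-144 at 0.0326 at 25 and 0.0715 at 75, and miR-223 at 0.0288 at 75. The fits on slide 1 or slide 3 alone took all 576 names without the filter, so miR-223 is the mean of both probes there. With its 1 kept probe, miR-223 differed from the control of slide 1 by 0.0092, -0.0025 and -0.0167 at the rising doses. On slide 3 that probe differed by -0.0093 at 75. These have the same sign as in the report. With 1 array left out, miR-451 lay between -0.0849 and 0.23 at 50, miR-144 between -0.0688 and 0.0554 at 50 and between -0.12 and 0.0690 at 75, and miR-223 between -0.0159 and 0.00548 at 75. The slopes then lay between -0.0783 and 0.0345 for miR-451 and between -0.0341 and 0.0298 for miR-144. At 25 mg/kg/day miR-451 kept its direction under all 17 alternatives (-0.85 to -0.30, lowest limma adjusted P = 0.277) and in all 18 fits without 1 array. The alternatives that changed only the presence filter could not move it. Both of its probes passed each filter, so its value stayed at -0.34 by construction. Of the changes that kept their sign, those of miR-144 and miR-223 at 25 mg/kg/day moved most with the signal used: miR-144 was at -0.48 in the processed and -1.55 in the total gene signal, and miR-223 at 0.42 in the processed signal. With 1 array left out, the changes that kept their sign lay between -0.46 and -0.23 (miR-451 at 25), -0.35 and -0.00915 (miR-451 at 75), -0.13 and -0.0109 (miR-144 at 25), 0.0222 and 0.0476 (miR-223 at 25) and -0.0444 and -0.00610 (miR-223 at 50). Few controls share a slide with each dose, and miR-144 and miR-223 are near background. Changes of the size the intervals hold were not excluded in the probe signal. What size of change could have been detected was not tested.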
